A study of Saccharomyces cerevisiae with 2 samples.

Results

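The yeast genome windows described here were those of highest summed nucleosome occupancy in a wild-type library. Each of chromosomes 1 to 16 was divided into 10 kb windows from position 0, the occupancy of all wild-type nucleosome calls centred in a window was added up, and windows with a sum of 30 or more were kept. Chromosome 3 and the windows from 80 to 140 kb on chromosome 1 were left out by the same rule. This gave 16 of 1202 windows that held a wild-type call. They contained 776 of 48019 wild-type calls and 781 of 48132 calls of the mutant library. The windows were thus chosen by the measured wild-type occupancy, which is given below as a description and not as a finding.

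Both libraries came from budding yeast (Saccharomyces cerevisiae) of the haploid laboratory strain BY4741, grown in YPD, a rich glucose medium, at 30°C to an optical density of about 0.5. One genotype was wild type and the other, labelled fun30D, lacked FUN30, and there was 1 library of each. The labels do not say how the deletion was made. Cells of both genotypes were fixed with 1% paraformaldehyde for 30 minutes, and crude nuclei were treated for 10 minutes at 37°C with micrococcal nuclease. DNA of mononucleosome size was isolated from a gel and sequenced.

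A nucleosome is a short stretch of DNA wrapped around a core of histone proteins, and micrococcal nuclease cuts the linker DNA between nucleosomes, so that the surviving fragments mark where nucleosomes sat. In yeast, nucleosomes over genes tend to form regularly spaced arrays that start beside a nucleosome-depleted promoter. Fun30 is a chromatin remodelling enzyme that uses ATP to move or alter nucleosomes, and it is known for roles in silent chromatin and in the processing of DNA ends. The series asked how nucleosome positions and occupancy differed between wild-type cells and cells without this enzyme.

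Each deposited call has a centre and a width, both in bp, and a signal for occupancy on the authors' own scale, called occupancy units here. It is not a read count, and the sequencing depth behind it is unknown. The occupancy distributions of the libraries were matched almost value for value, so equal totals carry no information and only the placement of the signal along the genome could be compared. With 1 library per genotype, effects of genotype, culture, digestion and library preparation cannot be told apart. No test between genotypes was made. Intervals of unweighted shares are exact (Clopper-Pearson) at 95%, and those of weighted shares and of a difference between shares are normal at 95%. They reflect the number of calls alone, and calls do not replace replicate libraries. Coordinates are those of the deposited files, whose genome build differs from the gene table at hand, so no gene was assigned to any window.

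The 16 windows were 1.33% of all windows and held 1.62% of the wild-type calls and 3.67% of the wild-type occupancy. Across all windows the median sum was 12 occupancy units in wild type and 12.1 in the mutant, and the median number of calls was 42 in both libraries. The kept windows were therefore both somewhat richer in calls, with 44 to 59 wild-type calls in 15 of them, and richer in occupancy per call, with a mean of 0.735 against 0.317 for all other wild-type calls. They lay on 12 chromosomes, with 3 on chromosome 5 and none on chromosomes 2, 15 and 16. Their nearest chromosome end, taken as the first or last call, was 30.0 to 449 kb away.

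Of the 1164 windows the rule could keep, 16 or 1.37% reached 30 units in wild type. The mutant library gave the same percentage, 1.37%, and 15 of its 16 windows were those chosen in wild type. The exchange concerned the windows at the threshold. The window from 700 to 710 kb on chromosome 14 held 30.7 units in wild type and 29.0 in the mutant, and the window from 30 to 40 kb on chromosome 1 held 28.5 in wild type but 30.6 in the mutant. The stretches that the rule left out contained 7 further windows with a wild-type sum of 30 or more, which are not described here.

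**Figure D1:**
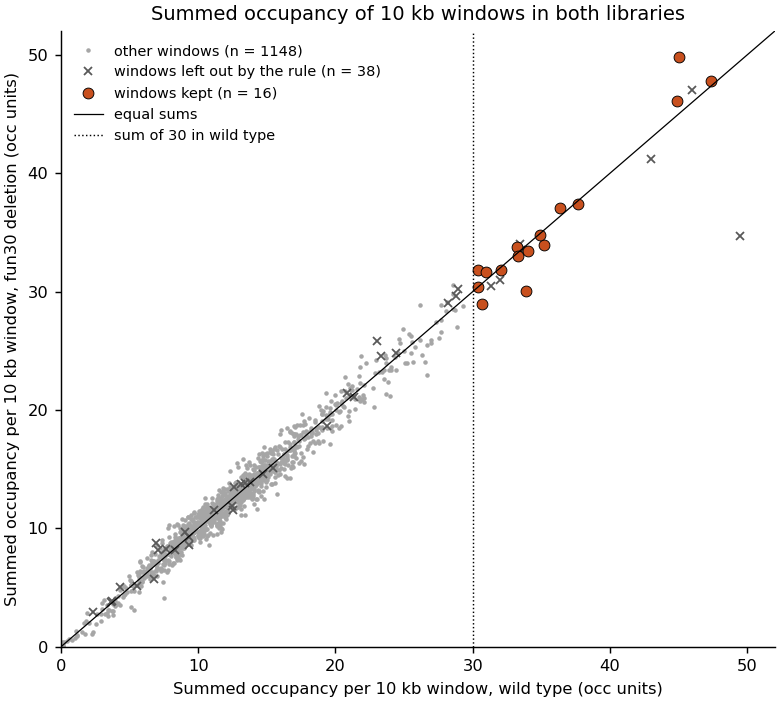
Summed occupancy of each 10 kb window in wild type (horizontal axis) and in the fun30 deletion library (vertical axis), both in occupancy units, with 1 point per window and the line of equal sums. The 16 kept windows lie between 30.4 and 47.4 units in wild type and between 29.0 and 49.8 in the mutant, close to the line.

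The highest sum was at 520 to 530 kb on chromosome 11, with 47.4 units in wild type and 47.8 in the mutant. On chromosome 1 the window from 190 to 200 kb held 45.1 units in wild type and 49.8 in the mutant. On chromosome 9 the window from 50 to 60 kb held 44.9 and 46.1 units. These 3 stood apart from the remainder in both libraries, since no other kept window exceeded 37.7 units in wild type or 37.4 in the mutant.

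The next sums were those at 170 to 180 kb on chromosome 8, with 37.7 units in wild type and 37.4 in the mutant, and at 220 to 230 kb on chromosome 6, with 36.4 and 37.1 units. The window from 60 to 70 kb on chromosome 1 had a wild-type sum of 35.2 units and a mutant sum of 34.0. At 460 to 470 kb on chromosome 10 the sums were 34.9 and 34.8 units. In these windows the libraries differed by 1.26 units or less.

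At 810 to 820 kb on chromosome 13 the sum was 34.0 units in wild type, and 33.4 in the mutant library. At 470 to 480 kb on chromosome 5 they were 33.9 and 30.1 units. At 450 to 460 kb on chromosome 7 they were 33.3 and 33.0 units. The chromosome 5 window had the greatest decrease of any kept window.

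The windows of rank 11 to 13 are named to account for every member and fall outside the naming rule. These were at 190 to 200 kb on chromosome 5, with 33.2 wild-type and 33.8 mutant units, at 570 to 580 kb on chromosome 10, with 32.1 and 31.9 units, and at 80 to 90 kb on chromosome 5, with 31.0 and 31.7 units. Just inside the threshold were the chromosome 14 window named above, the window from 450 to 460 kb on chromosome 12, with 30.4 units in both libraries, and the window from 140 to 150 kb on chromosome 4, with 30.4 units in wild type and 31.8 in the mutant. Just outside were 90 to 100 kb on chromosome 10, with 29.3 and 28.7 units, 250 to 260 kb on chromosome 12, with 28.9 and 27.0 units, and 360 to 370 kb on chromosome 10, with 28.7 and 28.4 units. The values on either side of the threshold run on without a gap.

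The sum was higher in the mutant in 7 windows and lower in 9, and it differed by no more than 5% in 13 of them. Over all 16 the summed occupancy was 571 units in wild type and 572 in the mutant, a ratio of 1.00 with an SD of 0.0467 over windows. Only 2 windows differed by more than 10%. These were the chromosome 1 window from 190 kb, with a log2 ratio of mutant to wild type of 0.14, and the chromosome 5 window from 470 kb, with -0.17. Across the 1133 windows with at least 20 calls in both libraries the log2 ratio had an SD of 0.10, and 95% of windows lay between -0.20 and 0.21. Larger absolute ratios than in these windows were seen in 15% and 9.27% of those windows. Both differences were therefore within the range common to the genome, and no replicate is at hand to judge them.

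Strong nucleosomes, defined here as calls of 1 unit or more, made up 31.6 to 96.6% of the wild-type sum of a window, with a median of 58.6%. Of the wild-type calls 4.17% were strong across chromosomes 1 to 16, against 164 of 776 (21.1%) in the windows. In the mutant 4.17% of all calls were strong, against 164 of 781 (21.0%) in the windows. In wild type this follows from the rule, and the mutant sums were close to those of wild type. The number of strong calls was identical between libraries in 8 windows and differed by at most 2 in all 16.

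Many strong nucleosomes of the windows sat side by side. In wild type 116 of 164 (70.7%, interval 63.1 to 77.6%) had another strong call as a direct neighbour, against 27.9% of the 1836 strong calls outside the windows. In the mutant the count was 115 of 164 (70.1%, 62.5 to 77.0%), against 27.9% outside. A window sum favours places where strong calls are dense, and dense strong calls are more often neighbours, so these shares are a description in both libraries. Log2 occupancy of neighbouring calls correlated with r = 0.38 over 760 intervals in the windows in wild type and 0.42 over 765 in the mutant. Outside the windows r was 0.20 and 0.21. Neighbouring calls come from 1 library and share its digestion and coverage.

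The windows differed in how their occupancy was laid out, as the maps of the 6 highest windows show. In the 15 windows with 44 or more calls, the richest stretch of 3 kb held a median of 61.4% of the wild-type sum and 61.0% of the mutant sum. In 1125 other windows with at least 20 wild-type calls the wild-type median was 49.7%, with quartiles of 44.2 and 56.0%. The 3 windows just outside the threshold had 70.3, 70.0 and 69.7% in wild type, so a high share was not particular to the kept windows. The share is computed from the occupancy that chose the windows and is a description. The occupancy was most compact at 470 kb on chromosome 5, where the richest 3 kb held 85.1% of the sum in wild type and 81.2% in the mutant. In that window 13 of 43 wild-type intervals between neighbouring calls were 140 to below 190 bp long, the lowest share (30.2%) of the 15, and it had no run of 4 or more strong calls in either library. The occupancy was most spread out at 80 kb on chromosome 5, with 41.8% and 39.2%.

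**Figure D2:**
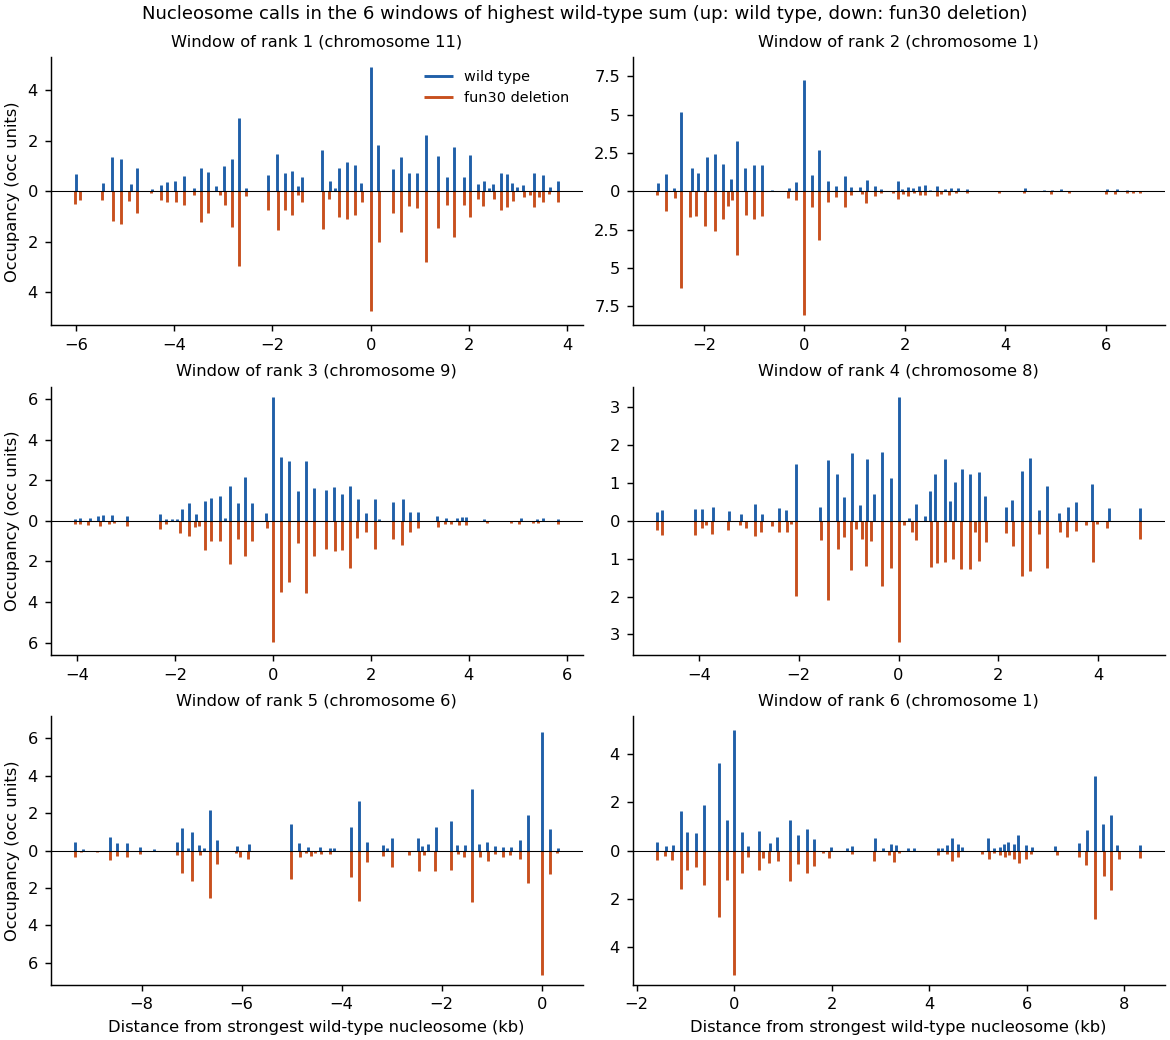
Nucleosome calls of the 6 windows with the highest wild-type sums, as bars of occupancy in occupancy units against the distance in kb from the strongest wild-type call of the window, with wild type upwards and the fun30 deletion library downwards and with a scale of its own for each window. The bars of the libraries mirror each other, and in the windows of rank 2 and 3 most of the occupancy lies within a few kb.

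Unbroken runs of strong calls were found in several windows. On chromosome 9 the calls from 54129 to 55860 formed the longest unbroken run of strong calls in the wild-type library, 11 nucleosomes over 1731 bp with a mean distance of 173 bp between centres and a summed occupancy of 25.6 units. Its first member was its strongest, with 6.13 units. The mutant library had the same array as a run of 10 strong calls from 54130 to 55697 with 25.5 units, also the longest of that library. The call that ended the wild-type run, at 55860 with 1.07 units, was found at 55853 with 0.84 units in the mutant. The array was thus present in both libraries with nearly the same placement.

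On chromosome 1 the strong calls of wild type lay between 190195 and 193240, and 79.6% of the sum fell in 3 kb, against 82.2% in the mutant. The window contained a run of 6 strong calls from 190494 to 191326 in wild type and from 190493 to 191331 in the mutant. A second run of 4 followed, from 191605 to 192104 in wild type and from 191607 to 192103 in the mutant. On chromosome 5 from 190 kb a run of 6 strong calls extended from 193055 to 193882 in wild type and to 193880 in the mutant. Runs of 4 or more strong calls were wholly inside the windows in 8 cases in each library, and elsewhere there were 11 in wild type and 12 in the mutant.

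Other windows had scattered strong calls. At 520 kb on chromosome 11 the 16 strong wild-type calls were spread over 7288 bp, the richest 3 kb held 47.4% of the sum and the median call had 0.66 units, the highest median of the 16 windows. At 700 kb on chromosome 14 only 6 strong calls were present in wild type and 5 in the mutant, and they held 31.6% and 29.1% of the sum. That window held 59 wild-type calls, the largest number of any kept window.

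In a further pair of windows a single nucleosome weighed heavily. At 140 kb on chromosome 4 the call at 148198 had 8.11 units in wild type and 10.4 in the mutant, or 26.7% and 32.7% of the window sum. Only 5 calls of this window were strong in each library. Without its strongest wild-type call, 9 of the 16 windows still had a sum of 30 or more. The strongest call was the same paired nucleosome in both libraries in 14 of 16 windows, and the exceptions were chromosome 10 from 460 kb and chromosome 5 from 80 kb.

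The chromosome 12 window had only 5 calls in each library and met the rule through a single one. The call at 459888 in wild type and 459887 in the mutant had 29.4 units in both, the highest value of each library, and made up 96.6% of the window sum. That the value is equal in both libraries follows from the matched distributions, because the top value of each list is the same. The other 4 wild-type calls, at 450112, 450231, 450409 and 450936, added 1.03 units, and those of the mutant added 1.02. A stretch of 8952 bp without a call in wild type, and of 8967 bp in the mutant, separated them from the strong call.

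The strong call lay 112 bp before the window edge and belonged to a cluster of 5 calls that the edge divided. Its next neighbours were at 460074, with 10.4 units in wild type and 9.21 in the mutant, and at 460253, with 14.1 units in both. Then came 460368, with 2.30 units, found at 460392 with 1.81 units in the mutant, and 460474, with 1.30 units, found at 460517 with 4.06 units in the mutant. After this cluster the wild-type list had no call for 29097 bp and the mutant list none for 29046 bp. The right arm of yeast chromosome XII carries the tandem repeats of the ribosomal RNA genes. Whether the cluster lies in those repeats was not determined, since no annotation of the build was at hand.

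Displacement between the libraries was not used to choose the windows. A wild-type and a mutant call formed a pair if they were mutually nearest with centres no more than 73 bp apart. Across chromosomes 1 to 16, 85.0% of wild-type and 84.8% of mutant calls had a partner. In the windows 702 of 776 wild-type calls (90.5%, 88.2 to 92.4%) and 702 of 781 mutant calls (89.9%, 87.6 to 91.9%) were paired. Outside the windows the wild-type share was 84.9%, so that calls in the windows found a partner more often, by 5.60 percentage points (3.51 to 7.69). Unpaired wild-type calls had medians of 0.124 units in the windows and 0.116 outside, against 0.389 and 0.209 for all wild-type calls. The rule chose by occupancy and the paired share was not weighted to like occupancy, so its difference is a description.

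The calls without a partner were weak. The 74 unpaired wild-type calls of the windows had a median of 0.124 units, the 79 unpaired mutant calls a median of 0.128 units, and none was strong. The strongest in wild type was at 475667 on chromosome 5, with 0.709 units, and the nearest mutant call was 73 bp away. The strongest in the mutant was at 191419 on chromosome 1, with 0.944 units and a wild-type call 71 bp away. Both of these calls were close to a call of the other library that had a nearer partner.

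A pair was called shifted when its centres were 20 bp or more apart. Of all 40794 pairs 26.6% were shifted, against 121 of 702 (17.2%, 14.5 to 20.2%) in the windows. The difference from the pairs outside the windows, of which 26.8% were shifted, was -9.53 percentage points (-12.4 to -6.70). The median distance between paired centres was 6 bp in the windows and 9 bp outside. Of the shifted pairs 58 lay at higher and 63 at lower coordinates in the mutant, so neither direction prevailed.

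Nucleosomes of high occupancy were displaced less often everywhere, and the windows are rich in them. All pairs were therefore divided into 10 classes of equal size by the geometric mean of their occupancy in both libraries, and the pairs outside the windows were weighted to the classes of the pairs inside. So weighted, 17.5% of outside pairs were shifted (17.2 to 17.9%), and the windows differed from this by -0.31 percentage points (-3.13 to 2.50). Between pairs of the same occupancy the shifted share in the windows was thus not distinguishable from that elsewhere at this number of pairs. In the lowest class 11 of 29 window pairs were shifted (37.9%), against 45.9% outside, and in the highest class 11 of 245 (4.49%), against 4.25% outside. Classes between departed in both directions. In class 5, 17 of 37 window pairs were shifted (45.9%), against 29.6% outside, and in class 7, 8 of 72 (11.1%), against 20.9%.

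**Figure D3:**
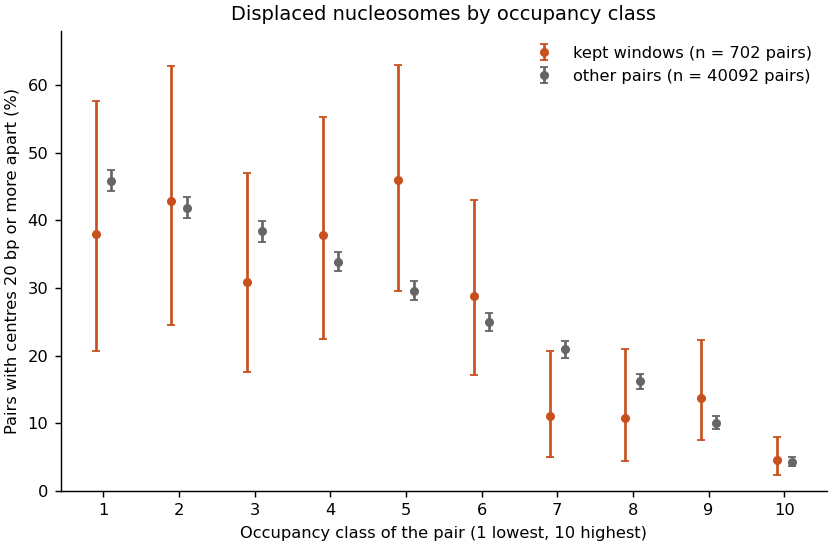
Share of pairs with centres 20 bp or more apart, in percent, by class of mean occupancy from lowest (1) to highest (10), for pairs in the 16 windows and for all other pairs, with exact 95% intervals. The share runs from 45.9% to 4.25% in the other pairs, and the window pairs include it in their wide intervals in 9 of 10 classes, while the interval of class 7 ends at 20.7%, below the 20.9% of the other pairs.

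The shifted share fell along the range of window sums. In windows with a wild-type sum below 10 units 28.5% of pairs were shifted, and the share was 27.7, 25.1, 23.3 and 21.1% in the windows of 10 to 15, 15 to 20, 20 to 25 and 25 to 30 units, before the 17.2% of the kept windows. The occupancy classes alone gave 30.3, 27.3, 24.4, 21.9, 20.8 and 17.5% for the same 6 groups. For sums below 10 units the interval of the measured share, 27.6 to 29.4%, lay below the value from the classes. In every other group the interval included that value. The kept windows were the end of a gradual series and not a separate group in this measure.

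Very close agreement of centres was compared in the same way. Across all pairs 23.2% had centres within 2 bp of each other, against 223 of 702 (31.8%, 28.3 to 35.4%) in the windows. Outside pairs weighted to the same occupancy gave 35.36% (34.7 to 36.0%), just above the upper bound of the window interval, 35.35%. At like occupancy, centres this close were thus somewhat less frequent in the windows than elsewhere. For centres 40 bp or more apart the windows had 29 pairs (4.13%, 2.78 to 5.88%), and outside pairs weighted alike gave 4.85%.

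Occupancy changed by 2-fold or more in few pairs. Among all pairs 2.59% were at least 2-fold higher in the mutant and 2.29% at least 2-fold lower. In the windows 8 of 702 (1.14%, 0.493 to 2.23%) were higher and 12 (1.71%, 0.886 to 2.97%) lower. Together these made 2.85% (1.75 to 4.37%), against 3.23% for outside pairs weighted to the same occupancy. The ratio includes the wild-type values that chose the windows, so these counts are a description.

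Among single windows the shifted share ranged from 7.55% at 520 kb on chromosome 11, where 4 of 53 pairs were shifted (2.09 to 18.2%), to 31.4% at 470 kb on chromosome 5, where 11 of 35 were (16.9 to 49.3%). In 14 of the 15 windows with 44 or more calls the share was below that of all pairs, and the exception was this chromosome 5 window. The interval lay wholly below the share of all pairs in 3 windows, the one on chromosome 11 and both on chromosome 10, and wholly above it in 0. The share of all pairs is not weighted to like occupancy. The intervals of these 3 windows all include 17.5%, the share of outside pairs weighted to the occupancy of the window pairs together. The chromosome 12 window had 0 of 5 pairs shifted, which allows a share of up to 52.2%.

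**Figure D4:**
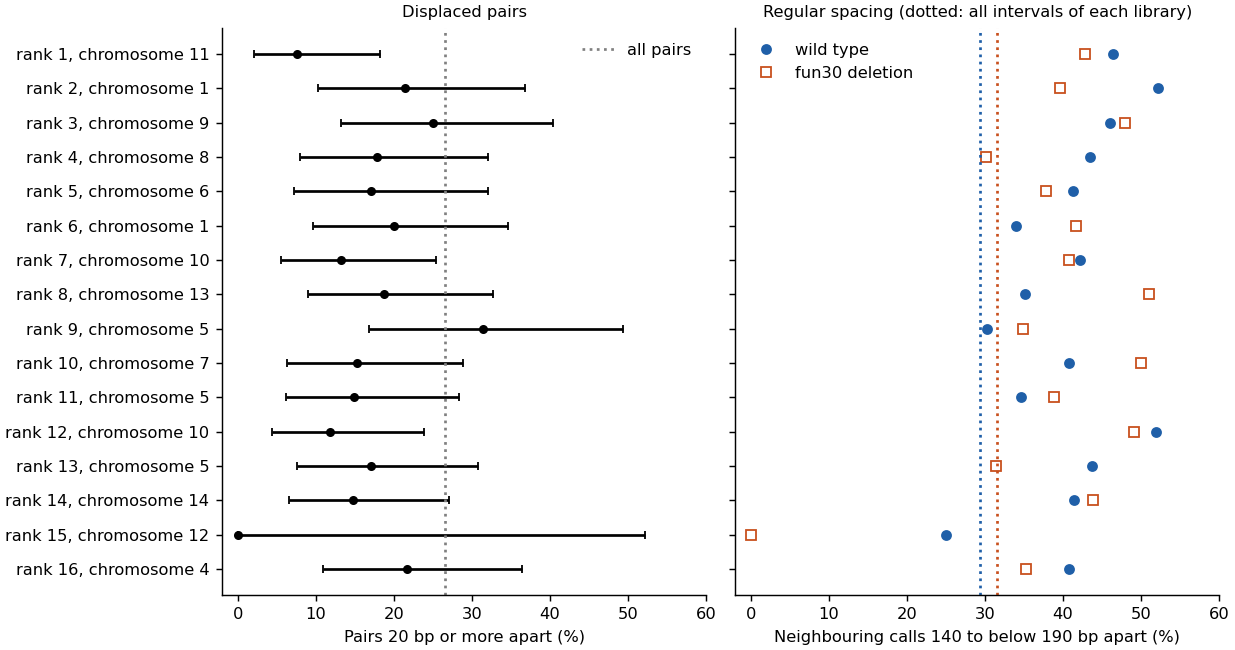
Left, percent of pairs with centres 20 bp or more apart in each of the 16 windows, with exact 95% intervals and the share of all pairs as a dotted line. Right, percent of neighbouring calls 140 to below 190 bp apart in wild type and in the fun30 deletion library, with the shares of all intervals dotted, where the chromosome 12 window has 4 intervals only.

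The 10 pairs of highest mean occupancy in the windows were all within 2 bp of each other. After the chromosome 12 call came the nucleosome at 148198 on chromosome 4, with 8.11 units in wild type and 10.4 in the mutant. On chromosome 1 the call at 192941 had 7.26 units in wild type and 8.12 in the mutant, and the call at 190494 had 5.16 and 6.34 units. Of the 10 pairs 5 were higher in the mutant.

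The others of this group were within 5% of each other. They were 229415 on chromosome 6, with 6.34 units in wild type and 6.65 in the mutant, 54129 on chromosome 9, with 6.13 and 5.99 units, and 452075 on chromosome 7, with 5.35 and 5.09 units. Further down came 61635 on chromosome 1, with 5.0 and 5.16 units, 526078 on chromosome 11, with 4.91 and 4.72 units, and 818069 on chromosome 13, with 3.77 and 3.73 units. The centres of these strongest nucleosomes thus differed by 1 or 2 bp between the libraries.

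Strong pairs, with a mean occupancy of 1 unit or more, were rarely displaced. Of 166 such pairs in the windows 7 were shifted (4.22%, 1.71 to 8.50%), against 39 of 1760 outside (2.22%, 1.58 to 3.02%). The difference was 2.0 percentage points, and its interval of -1.13 to 5.13 includes 0. These 7 pairs lay in 4 windows.

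On chromosome 1, 3 of the 7 were direct neighbours. The wild-type calls at 190702, 190826 and 190995, with 1.53, 1.18 and 2.22 units, were paired with mutant calls at 190661, 190788 and 190972, with 1.70, 1.63 and 2.27 units. All were at lower coordinates in the mutant, by 41, 38 and 23 bp, while the calls before and after them, at 190494 and 191169 in wild type, were at 190493 and 191170 in the mutant. The wild-type widths were 178, 92 and 140 bp, and those of the mutant 129, 117 and 136 bp. The group of 3 was singled out after its values were seen, and neighbouring calls are not independent of each other.

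The other shifted strong pairs were not direct neighbours of each other. On chromosome 8 the call at 175723 was at 175761 in the mutant and the call at 176117 at 176075, a pair of displacements toward each other of 38 and -42 bp. Between them stood a strong call at 175923 with 1.63 units in wild type, found at 175913 with 1.09 units in the mutant. In wild type a weaker call at 176011 with 0.53 units also stood between them, without a partner. On chromosome 5 the call at 192326 was at 192363, and on chromosome 7 the call at 451610 was at 451585. Weaker calls near 192326 were also 20 bp or more away in the mutant. Those at 192212, 192596 and 192899 were at 192251, 192576 and 192878, while the call at 192463 was unmoved. The shifted strong pairs named in this paragraph had 1.01 to 1.44 units in wild type and 0.96 to 1.12 units in the mutant, near the lower limit for a strong call.

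The strong pairs of the windows were higher in the mutant in 86 of 166 cases (51.8%, 43.9 to 59.6%), and outside in 50.1%. Single windows leaned to either side. On chromosome 1 from 190 kb 12 of 14 strong pairs were higher in the mutant, while from 60 kb on the same chromosome 2 of 9 and from 460 kb on chromosome 10 3 of 10 were. In the chromosome 5 window from 470 kb 4 of 10 were higher. Strong calls lower in the mutant there included 474590, with 4.13 units in wild type and 3.37 in the mutant, 473048, with 2.32 units against 1.53 at 473052, and 475035, with 1.97 against 1.40 at 475036. None of its strong pairs was displaced by more than 12 bp, although its shifted share over all pairs was the highest.

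Among pairs whose calls both exceeded the lower quartile of their library's occupancy, the greatest decreases in the windows were 2.26-fold to 2.54-fold. The strongest nucleosome among these was at 192463 on chromosome 5, where 1.84 units in wild type faced 0.727 in the mutant with an unmoved centre. It lay 137 bp from the displaced call at 192326 in wild type. The others had 0.365 to 0.578 units in wild type. They were at 191313 on chromosome 5, 579379 on chromosome 10, 453773 on chromosome 7 and 700859 on chromosome 14.

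The 5 greatest increases were 1.85-fold to 2.22-fold and concerned nucleosomes of 0.158 to 0.249 units in wild type. They were at 199301 and 472399 on chromosome 5 and at 63613, 192627 and 64954 on chromosome 1. The most displaced pairs were those of 174498 on chromosome 8, found 69 bp lower with 0.722 units in wild type and 0.525 in the mutant, and of 463768 on chromosome 10, found 64 bp lower with 0.428 and 0.533 units. The other 8 of the 10 most displaced pairs were 46 to 57 bp apart, with 0.144 to 0.345 units in wild type. Of these 10 pairs 5 lay on chromosome 5, whose 3 kept windows held 35, 47 and 47 of the 702 pairs. Whether this count exceeds that base was not tested. Of the 20 pairs named here for a change in occupancy or position, the nucleosome at 192463 was the one with a mean occupancy of 1 unit or more.

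Distances between neighbouring centres were not summed by the rule, although closely packed calls raise a window sum. Spacing was called regular when centres were 140 to below 190 bp apart. Of all intervals 29.3% were regular in wild type and 31.5% in the mutant. In the windows the counts were 316 of 760 (41.6%, 38.0 to 45.2%) in wild type and 313 of 765 (40.9%, 37.4 to 44.5%) in the mutant. The share in the windows was higher than outside by 12.5 percentage points (9.0 to 16.1) in wild type and by 9.61 (6.11 to 13.1) in the mutant. The median regular distance was 164 bp inside and outside the windows in both libraries.

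The excess was also computed by the occupancy of the neighbours. Where both neighbours had 0.5 units or more, 68.6% of 194 wild-type intervals in the windows and 59.2% outside were regular, a difference of 9.32 percentage points (2.45 to 16.2). In the mutant these shares were 69.2% of 195 intervals and 61.9%, a difference of 7.36 points (0.555 to 14.2). Where a neighbour was weaker, the difference was 4.65 points (0.777 to 8.53) in wild type and 1.34 points (-2.49 to 5.16) in the mutant. The interval of the excess lay above 0 in both libraries where both neighbours had 0.5 units or more, and in wild type alone where a neighbour was weaker. The division at 0.5 units does not make occupancy equal within a class. Strong calls were 21.1% of wild-type calls in the windows and 3.89% outside. Whether an excess remains between neighbours of the same occupancy was not tested.

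Wide gaps were fewer in the windows. Distances of 220 to 450 bp, which include nucleosome-free gaps, made up 14.1% of window intervals and 21.1% of outside intervals in wild type, and 14.8% and 20.3% in the mutant. The differences were -7.01 percentage points (-9.51 to -4.51) in wild type and -5.49 (-8.03 to -2.95) in the mutant. Distances under 120 bp, shorter than a nucleosome and its linker, made up 22.6% and 19.5% in wild type and 20.3% and 18.9% in the mutant. The difference for these short distances was 3.09 points (0.0937 to 6.09) in wild type and 1.37 points (-1.50 to 4.24) in the mutant, so only the wild-type interval lay above 0. Closely packed calls raise a window sum and leave fewer wide gaps. The differences for wide and short distances were not adjusted for the number of calls or for occupancy, and are a description.

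Mutant minus wild type, the regular share differed by -0.66 percentage points in the windows and by 2.25 points outside. Windows minus outside, this was -2.91 points, and its interval from counts alone (-7.89 to 2.07) spans both signs. With 1 library per genotype these differences have no replicate error and were not tested. The regular share was higher in the mutant in 7 of the 15 windows with 44 or more calls and lower in 8. It was above that of all intervals in 15 of 15 windows for wild type and in 13 of 15 for the mutant, the exceptions being chromosome 8 and chromosome 5 from 80 kb.

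Single windows differed more widely, as the plot of regular shares by window shows. On chromosome 1 from 190 kb 24 of 46 intervals were regular in wild type and 19 of 48 in the mutant, and on chromosome 8 the counts were 20 of 46 and 16 of 53. On chromosome 13 the counts were 19 of 54 in wild type and 26 of 51 in the mutant. Each rests on about 50 intervals, and the direction varied between windows.

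The median width was 115 bp in the windows and 113 bp outside in both libraries. Over all calls, the SD of the width in the windows was 19.5 bp for wild type and 18.3 bp for the mutant, and outside it was 22.9 and 21.1 bp. Strong calls had a median width of 117 bp in the windows in both libraries, with SDs of 12.5 bp (wild type) and 9.97 bp (mutant). Strong calls outside had SDs of 11.1 and 10.2 bp. Calls below the median occupancy had SDs of 24.3 bp (wild type) and 25.3 bp (mutant) in the windows, and of 25.9 and 24.1 bp outside. Among calls of like strength the widths in the windows were therefore not the less variable ones in both libraries.

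Directly beside the windows the sums were much closer to the genome's median. The 30 windows directly beside the kept ones, leaving out chromosome 12, had a median sum of 14.5 units in wild type and 13.7 in the mutant. In wild type 21 of the 30 were above the median of all windows and 13 above the upper quartile of 15.3 units. The lowest was at 470 to 480 kb on chromosome 10, with 4.18 units in wild type and 3.71 in the mutant, directly beside a kept window. The highest was at 440 to 450 kb on chromosome 7, with 26.6 units in wild type and 24.1 in the mutant.

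**Figure D5:**
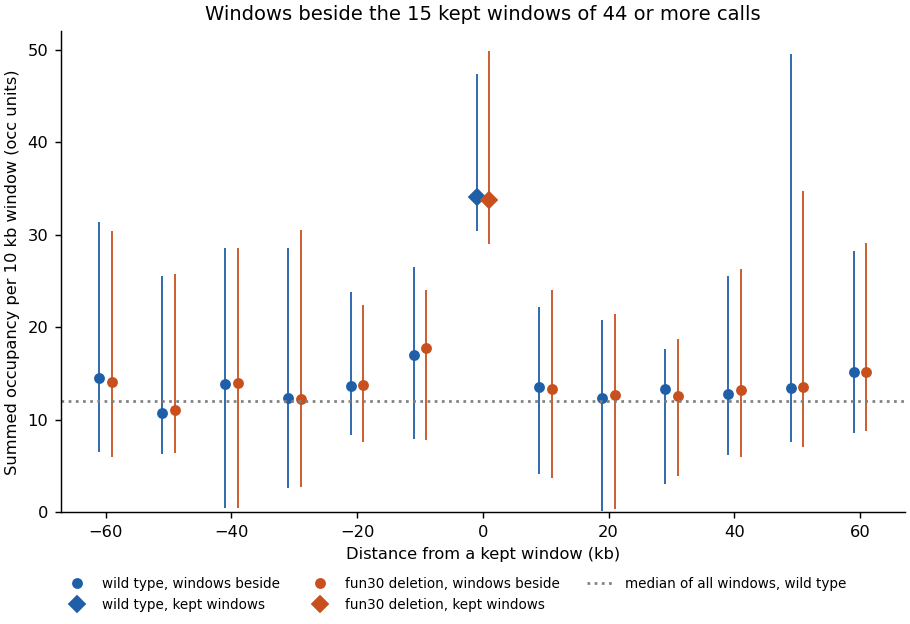
Summed occupancy of 10 kb windows in occupancy units against the distance in kb from the 15 kept windows of 44 or more calls, as the median (symbols) and the range (lines) in wild type and in the fun30 deletion library. The medians are 17.0 and 17.8 units at -10 kb and 13.5 and 13.3 units at 10 kb, and the line to 49.5 units at 50 kb is a chromosome 1 window that the rule left out.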

How the data were processed

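The deposited files list nucleosome calls of 1 library each, with chromosome, centre, width and occ, a signal that is never negative, per the file headers. The authors' scaling of it, their caller and their build are not given in the sources consulted, and Bowtie 0.12.7 is the one tool that the submitters' processing notes name. The depth of the libraries is unknown. The members and lists were chosen with earlier results of these data known. Windows, pairing, displacement, spacing and exact intervals were computed with Python 3.11.15, pandas 2.3.3, NumPy 2.4.6 and SciPy 1.17.1, and figures with matplotlib 3.10.9. The pairing was tested on simulated calls that stood farther apart than many real ones, so that test does not measure wrong pairing among close calls. No filter was set on occupancy. The rule for named positions took the 10 windows of highest sum, 3 on each side of the threshold, the strongest call of each window, and, within windows, the 10 strongest pairs, the 5 greatest increases and 5 greatest decreases and the 10 greatest displacements among pairs whose calls both exceeded the lower quartile of their library's occupancy. Gene names and sequences were not used here, because the files are not on the assembly of the gene table. The alternatives were other thresholds, window offsets, pairing distances, displacement and spacing limits, and the mutant library as the one that sets the sum.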

Additional observations from a re-analysis of the deposited data

How the results depend on the processing

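No paired analysis was possible because each genotype has 1 library. The number of kept windows, 16, became 45 with a sum of 25 or more and 6 with a sum of 35 or more, as the threshold fixes. With windows that started at 5 kb it was again 16, of which 12 overlapped a window described above, and 11 of the 16 described windows were overlapped, so the choice of windows depended partly on where the edges fell. The shifted share of 17.2% became 40.03% for displacements of 10 bp or more, 4.13% for 40 bp or more and 10.1% for pairs above the median occupancy of both libraries. The regular share became 27.6% in wild type and 30.2% in the mutant for distances of 150 to below 180 bp, where the mutant share was the higher one, as it was not for 140 to below 190 bp. The ratio of summed occupancy kept within its SD under all 5 alternatives tried (0.993 to 1.02), and the paired share within its interval under both (88.7 to 90.6%). Leaving out the window of highest sum or the chromosome 12 window moved no share beyond its interval. The difference in shifted share from pairs of the same occupancy, for which all alternatives were chosen after seeing the data, was between -0.82 and 2.58 percentage points under 10 alternatives. The last value was for displacements of 10 bp or more, and all intervals included 0. The depth of the libraries is unknown, so what it limits could not be computed.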
